A study of Mus musculus with 24 samples.

Results

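Microglial identity transcription factors are the DNA-binding proteins that keep a tissue macrophage in its brain-specific state, and 9 of them are described here: Spi1, Irf8, Mef2a, Mef2c, Sall1, Zfhx3, Maf, Cebpa and Runx1. The genes were taken by name from a table of estimated RNA counts per Entrez gene identifier. All 9 had a value, among 15878 genes with values of 22064 identifiers in all, and all 9 passed the filter on low counts with 10219 genes tested. Every member had a count in all 24 libraries, from 39 counts for Runx1 in its lowest library to 20464 for Irf8 in its highest, and its counts were whole numbers throughout.

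RNA came from microglia sorted by flow cytometry from the brains of wild-type mice on day 28, with 6 libraries in each of 4 groups. Sham mice had the control operation and phosphate-buffered saline (PBS), and BCAS mice had the BCAS operation and PBS. ND-Exos and WD-Exos mice had the BCAS operation and 100 µg of exosomes of the named kind in the tail vein every 3 days. BCAS commonly stands for narrowing of both common carotid arteries (bilateral carotid artery stenosis), which lowers blood flow to the forebrain, and exosomes are small vesicles released by cells; the series title names foam cells, lipid-laden macrophages, as their source. The sources used here give no strain, age or sex. They also do not say that the 6 libraries of a group were separate mice, and the p-values cover only the spread among these libraries, which may be technical.

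PU.1, the protein of Spi1, is the ETS-family factor that opens myeloid enhancers, and it binds many of them together with the interferon regulatory factor IRF8. MEF2A and MEF2C are MADS-box factors, and SALL1 is a zinc finger protein that in the adult brain's macrophages is largely restricted to microglia. ZFHX3 is a large protein with zinc fingers and homeodomains. MAF and C/EBPα are basic leucine zipper factors of macrophages and of myeloid development, and RUNX1 is a runt-domain factor of early blood cell formation. Loss of several of these factors is known to remove microglia or to shift them from their resting gene programme.

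Library totals were 24277722 to 28892423 counts, with 8515 to 10794 genes detected. Levels below are counts scaled to library size (counts per 1e6, CPM) after TMM scaling, a correction for library composition. The summed level of 10 microglial markers (Cx3cr1, P2ry12, Tmem119 and others) was 39700 to 70700 CPM in every library, and none of the 10 was at 0 in any group. In each group the largest sum of another cell type was that of oligodendrocyte markers, beside group medians of 227 to 329 CPM. It was 7570 CPM in Sham replicate 4, 5140 in WD-Exos replicate 6, 4180 in ND-Exos replicate 3 and 1240 in BCAS replicate 1. Mural and endothelial markers reached 981 and 545 CPM in Sham and at most 23.6 and 63.7 CPM in the operated groups, and astrocyte markers reached 453 CPM. Monocyte markers reached 31.9 CPM, and the neutrophil and lymphocyte markers with values at most 0.832 CPM. The part of these cells in the members' levels was not tested. Border macrophage markers, which matter for Maf, summed to 51.8 to 1410 CPM in Sham, 0.22 to 437 in BCAS, 51.3 to 596 with ND-Exos and 17.4 to 137 with WD-Exos. In 5 libraries, BCAS replicates 1 and 2 and WD-Exos replicates 1 to 3, immediate early genes such as Fos and Jun, which respond within minutes to stimulation and to cell handling, had a score above 8 (mean log2(CPM + 1) of 12 genes). In the other 19 libraries the score was at most 7.205.

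Compared per kilobase of the longest coding transcript, Irf8 and Spi1 were the most abundant members. The length-scaled level over all 24 libraries was 128 ± 44.6 CPM per kb for Irf8 (SD, n = 24) and 106 ± 59.5 CPM per kb for Spi1. Mef2c followed at 53.9 ± 13.7 CPM per kb and Sall1 at 40.8 ± 12.1 CPM per kb. The order then ran from Mef2a at 24.01 ± 11.5 CPM per kb to Cebpa at 17.2 ± 8.11 CPM per kb and Maf at 11.3 ± 3.88 CPM per kb. Zfhx3, whose longest transcript has 17152 bases, stood at 7.77 ± 2.88 CPM per kb, and Runx1 was the lowest at 4.45 ± 3.06 CPM per kb. Neighbours in this order had overlapping ranges over the libraries in all cases.

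**Figure D1:**
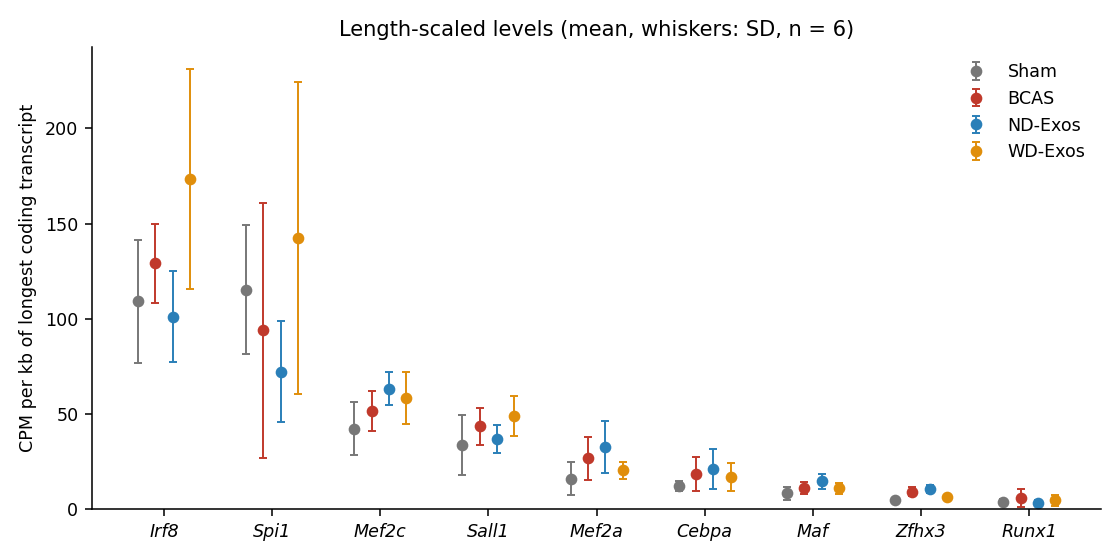
Length-scaled level of each transcription factor (y axis, CPM per kb of the longest coding transcript; points are group means and whiskers the SD of 6 libraries) in Sham, BCAS, ND-Exos and WD-Exos. Irf8 and Spi1 stand highest in all 4 groups, with WD-Exos means of 173 and 142 CPM per kb, and Runx1 lowest, between 3.31 and 6.06 CPM per kb.

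Zfhx3 was the member with the clearest difference between groups. In Sham its level was 63.5 CPM in the lowest library, 80.6 at the median and 109 in the highest. In BCAS the lowest, median and highest values were 104, 166 and 208 CPM, and with ND-Exos they were 126, 183 and 232 CPM. With WD-Exos they were 82.4, 105 and 138 CPM. The Zfhx3 level was therefore low in Sham and WD-Exos and high in BCAS and ND-Exos. BCAS replicate 2 was the only BCAS library within the Sham range, and every ND-Exos library was above every Sham library, which was so for 1 of the 9 members and for 0.294% of all tested genes. As in any bulk sample, fewer cells with the transcript and less RNA per cell cannot be told apart.

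Averaged over the 3 operated groups, Zfhx3 rose 1.72-fold against Sham (log2 fold change 0.78, SE 0.18, 95% interval 0.42 to 1.14, edgeR quasi-likelihood test, adjusted p = 0.0346). It was the 1 of 9 members called in that comparison, where 0.558% of all tested genes passed. The group means were 84.9 ± 17.6 CPM for Sham (SD, n = 6), 159 ± 43.0 CPM for BCAS, 183 ± 35.0 CPM for ND-Exos and 106 ± 19.9 CPM for WD-Exos. BCAS alone against Sham had a log2 fold change of 0.91 (SE 0.21, adjusted p = 0.166), and WD-Exos against ND-Exos had one of -0.78 (SE 0.21, adjusted p = 0.299), neither past the threshold of 0.05. WD-Exos against BCAS had -0.59 (SE 0.21, adjusted p = 0.816), and ND-Exos against BCAS 0.20 (SE 0.21, adjusted p = 1). The test of any difference over the 4 groups gave Zfhx3 an adjusted p of 0.0507, rank 6 of 10219 genes, where 0.0294% of genes passed.

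The call of Zfhx3 in operated against Sham was near the threshold in edgeR. DESeq2 also called it (adjusted p = 0.000335), and limma voom did not (adjusted p = 0.0573). Leaving out 1 library at a time, 12 of the 24 fits no longer called it, with adjusted p from 0.0508 to 0.131 and a log2 fold change of 0.71 to 0.79 in those fits; the adjusted p was 0.131, 0.119, 0.116 and 0.0754 without Sham replicates 3, 1, 5 and 4. The other fits in which it was lost left out BCAS replicate 3, 4, 5 or 6, ND-Exos replicate 5, or WD-Exos replicate 2, 4 or 5. Without BCAS replicate 2, BCAS against Sham passed for Zfhx3 (log2 fold change 1.01, adjusted p = 0.0322).

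Transcript length moved with the Zfhx3 result. Among other genes with a mean of at least 50 CPM, those with a longest coding transcript of 10000 bases or more (n = 39) had a median log2 fold change of 0.16 in operated against Sham, and 71.8% of them were higher. Genes under 1500 bases (n = 545) had a median of -0.15, and 31.2% were higher. Zfhx3 lay beyond the long genes' median: 1 of the 39 was as far up in operated against Sham. In WD-Exos against ND-Exos the long genes had a median of -0.30, and 4 of the 39 were as far down as Zfhx3. A length score per library, the mean log2(CPM + 1) of 352 long genes minus that of 545 short genes, averaged -0.961 ± 0.119 for Sham (SD, n = 6) and -0.727 ± 0.281 for BCAS. It averaged -0.687 ± 0.189 for ND-Exos and -0.691 ± 0.325 for WD-Exos.

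Within groups the Zfhx3 level rose and fell with this score. Pearson's r of deviations from the group means was 0.68 over 24 libraries (permutation within groups, two-sided, p = 0.00045, adjusted p = 0.0121 over 27 relations of members with library measures). Spearman's rho was 0.67 (permutation p = 0.00105, adjusted p = 0.0283), and r was 0.57 without BCAS replicate 2 and WD-Exos replicate 6, the libraries farthest from the median score. With the score as a covariate in the edgeR fit, the log2 fold change of Zfhx3 in operated against Sham was 0.54 (adjusted p = 0.249), no longer called. That in WD-Exos against ND-Exos was -0.78 (adjusted p = 0.172), so this second comparison kept its size. Sham had a lower mean score than each operated group, so the covariate could take up part of any difference between them, whatever its source. The part of transcript length in the first comparison was not tested. WD-Exos and ND-Exos had nearly the same mean score, so the covariate could hardly move the second comparison and did not test length there. In it genes of 5000 to 10000 bases had a median log2 fold change of -0.123, and genes under 1500 bases -0.122. Genes of 10000 bases or more had -0.299.

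**Figure D2:**
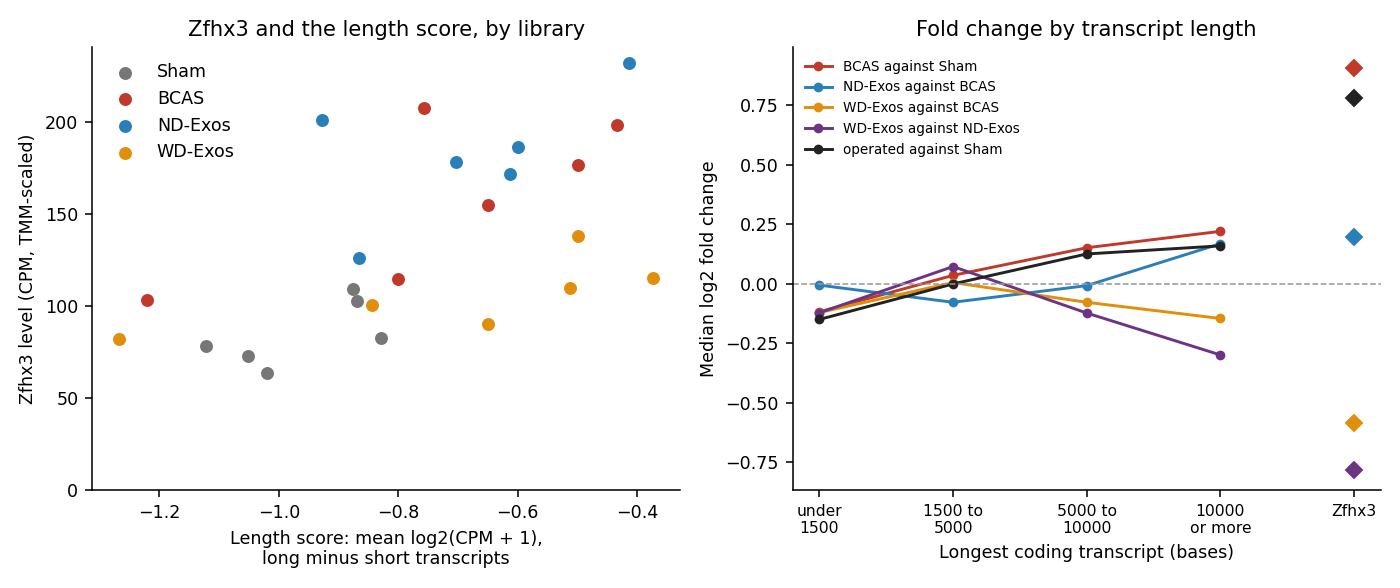
Left, the Zfhx3 level (y axis, CPM) against the length score of the library (x axis, mean log2(CPM + 1) of long minus short transcripts), 1 point per library, coloured by group. Right, median log2 fold change (y axis) of genes in 4 classes of transcript length (x axis, bases) in each comparison, with Zfhx3 as diamonds; long genes have medians of 0.22 in BCAS against Sham and -0.30 in WD-Exos against ND-Exos, and Zfhx3 lies at 0.91 and -0.78.

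Spi1 and Irf8, the myeloid pair, each had their 4 highest levels in 4 of the 5 libraries rich in immediate early genes, BCAS replicate 1 and WD-Exos replicates 1 to 3. In Sham the lowest, median and highest Spi1 levels were 118, 250 and 315 CPM. They were 73.7, 142 and 432 CPM in BCAS, 48.2, 166 and 192 CPM with ND-Exos, and 75.3, 289 and 475 CPM with WD-Exos. The 4 highest of all 24 libraries were WD-Exos replicates 1 to 3 and BCAS replicate 1, and the groups overlapped in every comparison. Spi1 passed in no comparison: its log2 fold change was -0.30 in BCAS against Sham (SE 0.42), -0.38 in ND-Exos against BCAS (SE 0.42), 0.60 in WD-Exos against BCAS (SE 0.42) and 0.98 in WD-Exos against ND-Exos (SE 0.42, 95% interval 0.12 to 1.84, adjusted p = 0.78).

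Irf8, whose protein pairs with PU.1 on DNA and is itself induced by interferon, stood at 246, 254 and 434 CPM in Sham (lowest, median and highest). In BCAS these values were 312, 348 and 468 CPM, with ND-Exos 206, 274 and 378 CPM, and with WD-Exos 336, 465 and 713 CPM. WD-Exos replicates 1 to 3, at 642, 713 and 550 CPM, were above every other library of the study, while replicates 4 to 6, at 380, 336 and 339 CPM, lay within the range of the other groups. The log2 fold change in WD-Exos against ND-Exos was 0.78 (SE 0.21, 95% interval 0.34 to 1.21, adjusted p = 0.299), which ranked 34 of 10219 genes and did not pass. Over the 4 groups Irf8 had an adjusted p of 0.323. In BCAS against Sham its log2 fold change was 0.24 (SE 0.21), in ND-Exos against BCAS -0.35 (SE 0.21) and in WD-Exos against BCAS 0.43 (SE 0.21, adjusted p = 1).

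Without the 5 libraries with the immediate early score above 8, the log2 fold change in WD-Exos against ND-Exos was 0.29 for Irf8 and -0.03 for Spi1, which then reversed. The libraries left out included the WD-Exos libraries highest in both genes and no ND-Exos library. A smaller difference was therefore built in, and the part of immediate early genes in it was not tested. With the immediate early score as a covariate, all libraries kept, the log2 fold change was 0.58 for Irf8 and 0.43 for Spi1. Between Spi1 and this score, r within groups was 0.65 over 24 libraries (permutation p = 0.00649, adjusted p = 0.0876; Spearman's rho 0.72, permutation p = 0.00248, adjusted p = 0.0335), and 0.60 without BCAS replicate 2 and WD-Exos replicate 2. Irf8 gave r = 0.54 (permutation p = 0.0115, adjusted p = 0.103; rho 0.49, permutation p = 0.0293, adjusted p = 0.198), and 0.47 without the same libraries. In the 19 other libraries r was 0.08 for Spi1 and -0.03 for Irf8. The score itself set which 5 libraries were left out, which narrows its range. A lower r was therefore partly built in, and these values cannot show whether the relations rested on those 5 libraries.

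Between Spi1 and Irf8 r was 0.60 within groups (permutation p = 0.00348, adjusted p = 0.125 over 36 pairs of members; rho 0.54, permutation p = 0.0145, adjusted p = 0.273). It was 0.58 without ND-Exos replicate 4 and WD-Exos replicate 6, and 0.23 in the 19 libraries outside the set rich in immediate early genes. This was the strongest of the 36 pairs, which ran from -0.35 for Spi1 and Sall1 to 0.60, with a median of -0.01. Of the 36 pairs 3 had an unadjusted p under 0.05 and 0 passed after adjustment, so the 9 factors did not move as 1 block between libraries of a group. The next pairs were Irf8 and Mef2a (r = 0.50, rho 0.46, adjusted permutation p = 0.213 and 0.273; 0.43 without Sham replicate 6 and WD-Exos replicate 2) and Spi1 and Mef2a (r = 0.38, rho 0.34, adjusted permutation p = 0.476 and 0.546; 0.34 without ND-Exos replicate 4 and WD-Exos replicate 6).

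**Figure D3:**
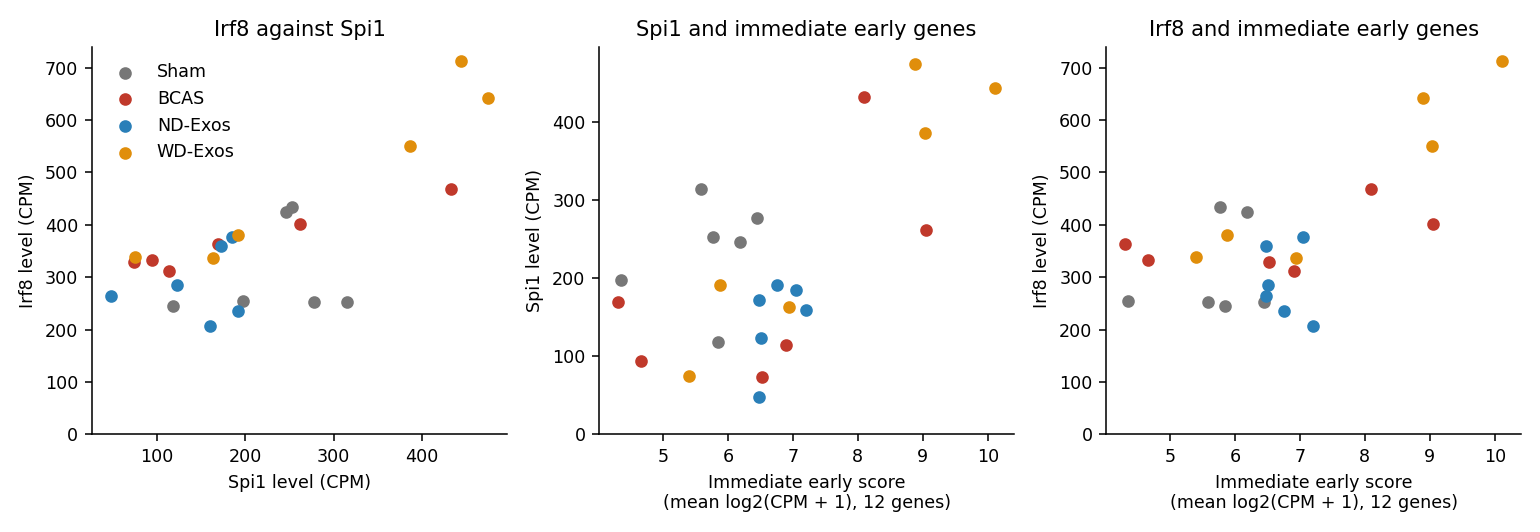
Left, the Irf8 level against the Spi1 level (CPM); middle and right, the Spi1 and Irf8 levels (y axes, CPM) against the immediate early score (x axes, mean log2(CPM + 1) of 12 genes), 1 point per library, coloured by group. WD-Exos replicates 1 to 3 sit at the upper right in all 3 panels, with Irf8 at 550 to 713 CPM.

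The sequence before the start site of Irf8 and that of Mef2c are shown because they held a searched motif, unlike the other sequences found, next to that of Zfhx3, the member that was called. Each is the 250 bases before the first start site that RefSeq lists in GRCm38.p6, 5′ to 3′ on the gene's strand, which is the plus strand for all 3 genes. They lie at chr8:120736108-120736357 for Irf8, chr8:108714394-108714643 for Zfhx3 and chr13:83503784-83504033 for Mef2c. Capitals mark matches to the STAT-type letters TTCNNNGAA or the ETS core CGGAAG, the latter read on the opposite strand in Mef2c.
Irf8: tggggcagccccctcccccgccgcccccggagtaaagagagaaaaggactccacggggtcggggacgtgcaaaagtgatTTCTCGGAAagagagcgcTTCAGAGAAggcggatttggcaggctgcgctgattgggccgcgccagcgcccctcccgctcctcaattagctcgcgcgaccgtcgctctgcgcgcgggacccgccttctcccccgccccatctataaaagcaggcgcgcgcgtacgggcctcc
Zfhx3: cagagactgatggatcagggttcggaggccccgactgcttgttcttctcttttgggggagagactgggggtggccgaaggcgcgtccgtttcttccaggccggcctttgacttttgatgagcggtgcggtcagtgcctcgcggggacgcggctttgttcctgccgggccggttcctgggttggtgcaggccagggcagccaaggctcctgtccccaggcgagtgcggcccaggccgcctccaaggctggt
Mef2c: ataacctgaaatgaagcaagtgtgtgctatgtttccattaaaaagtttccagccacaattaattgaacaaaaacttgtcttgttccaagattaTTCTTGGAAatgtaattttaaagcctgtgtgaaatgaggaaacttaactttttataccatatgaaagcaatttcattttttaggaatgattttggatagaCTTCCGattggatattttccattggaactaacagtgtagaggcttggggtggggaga

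The Irf8 sequence held 2 STAT-type matches, starting 171 and 153 bases before the start site. In Mef2c the STAT-type match started 157 bases and the ETS match 57 bases before it, and Zfhx3 had no match. Of 32851 RefSeq promoters of the same length, 7.02% held the STAT-type letters and 13.6% the ETS core. Sequences were found for 7 members with 13 start sites, those of Spi1 and Maf were not searched, and 2 of the 13 held any of 8 motifs searched on both strands. The others were the PU.1 site GAGGAAGT (2.44% of all promoters), the paired IRF motif (2.98%), RUNX TGTGGT (14%), C/EBP TTGCNNAA (9.56%), the MEF2 motif (3.2%) and MAF TGCTGAC (3.81%). The share of all promoters that held any of the 8 motifs was not computed, so the 2 of 13 cannot be set against it. The GAGGAAGT site is a form of the ETS site with another base before GGAA. The STAT-type letters were added after the Irf8 sequence had been read, and Irf8 matched no other motif. A match describes letters only.

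The MADS-box pair, Mef2a and Mef2c, had its lowest median in Sham. For Mef2a the lowest, median and highest levels were 27.4, 87.8 and 143 CPM in Sham and 58.6, 160 and 212 CPM in BCAS. With ND-Exos they were 109, 160 and 326 CPM, and with WD-Exos 82.6, 106 and 149 CPM. Its log2 fold change was 0.73 in BCAS against Sham (SE 0.35, adjusted p = 0.783), -0.69 in WD-Exos against ND-Exos (SE 0.35, adjusted p = 0.994) and 0.70 in operated against Sham (SE 0.30, 95% interval 0.09 to 1.31, adjusted p = 0.55). ND-Exos replicate 3 held the highest Mef2a level and Sham replicate 1 the lowest, and the groups overlapped throughout.

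Mef2c had a narrower spread. The lowest, median and highest levels were 186, 254 and 432 CPM in Sham, 257, 308 and 449 CPM in BCAS, 335, 396 and 477 CPM with ND-Exos and 291, 345 and 530 CPM with WD-Exos. All 6 ND-Exos libraries were above 5 of the 6 Sham libraries, and only Sham replicate 3, at 432 CPM, reached into their range. Operated against Sham gave Mef2c a log2 fold change of 0.44 (SE 0.16, 95% interval 0.12 to 0.76, adjusted p = 0.354), and over the 4 groups its adjusted p was 0.725, so it did not pass. Neurons also express Mef2c. Neuronal markers summed to at most 328 CPM, in Sham replicate 1, which had the lowest Mef2c level of all libraries, and to at most 22.9 CPM in the operated groups. In each group 6 of the 8 neuronal markers had a count; those at 0 were Rbfox3 and Nefl in Sham and ND-Exos, Nefl and Stmn2 in BCAS, and Gad1 and Stmn2 with WD-Exos. The part of neuronal RNA in the Mef2c level was not tested.

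Sall1, the zinc finger factor most specific to microglia among the members, varied most in Sham. Its lowest, median and highest levels were 67.6, 171 and 282 CPM there, against 162, 253 and 277 CPM in BCAS. With ND-Exos they were 148, 198 and 248 CPM, and with WD-Exos 193, 256 and 324 CPM. The within-group coefficient of variation of Sall1 was 46.7% in Sham and 19.9% to 22% in the operated groups, a difference in spread that was not tested. Its log2 fold changes were 0.37 in BCAS against Sham (SE 0.25), -0.24 in ND-Exos against BCAS (SE 0.25), 0.17 in WD-Exos against BCAS (SE 0.25) and 0.41 in WD-Exos against ND-Exos (SE 0.25, 95% interval -0.11 to 0.93), none past the threshold.

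Maf, a leucine zipper factor that border macrophages also express, had its lowest median in Sham and its highest with ND-Exos. The lowest, median and highest levels were 23.4, 52.6 and 80.6 CPM in Sham, 44.3, 72.5 and 97.2 CPM in BCAS, 64.9, 85.7 and 131 CPM with ND-Exos, and 44.6, 73.1 and 95.2 CPM with WD-Exos. Operated against Sham gave a log2 fold change of 0.55 (SE 0.25, 95% interval 0.03 to 1.06, adjusted p = 0.656). The library with the highest Maf level also had the highest border macrophage sum of its group in Sham (replicate 1, 1410 CPM), BCAS (replicate 1, 437 CPM) and WD-Exos (replicate 5, 137 CPM), but not in ND-Exos, where Maf was highest in replicate 2 and the sum in replicate 3. All 10 border macrophage markers had a count in Sham and ND-Exos and 9 in the other groups, with Lyve1 at 0 in BCAS and Cd209f at 0 with WD-Exos. The part of border macrophages in the Maf level was not tested.

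Cebpa, needed for the myeloid lineage, had a coefficient of variation of 22.1% in Sham and 43.5% to 49.3% elsewhere, an untested difference. Its lowest, median and highest levels were 19.8, 32.1 and 40.9 CPM in Sham, 27.5, 41.2 and 88.8 CPM in BCAS, 24.9, 54.8 and 85.2 CPM with ND-Exos and 14.9, 45.8 and 65.0 CPM with WD-Exos. The log2 fold change in operated against Sham was 0.64 (SE 0.35, adjusted p = 0.857), with overlap between all groups. Runx1 was the least precise member, with a biological coefficient of variation of 0.819 against a median of 0.408 over the 9. Its levels were 6.77, 24.3 and 36.0 CPM in Sham, 4.96, 30.1 and 87.2 CPM in BCAS, 7.37, 20.7 and 32.4 CPM with ND-Exos and 1.49, 24.6 and 51.1 CPM with WD-Exos (lowest, median and highest). The interval of its log2 fold change in BCAS against Sham ran from -0.74 to 2.07 and that in WD-Exos against BCAS from -1.79 to 1.01, wider than for any other member.

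**Figure D4:**
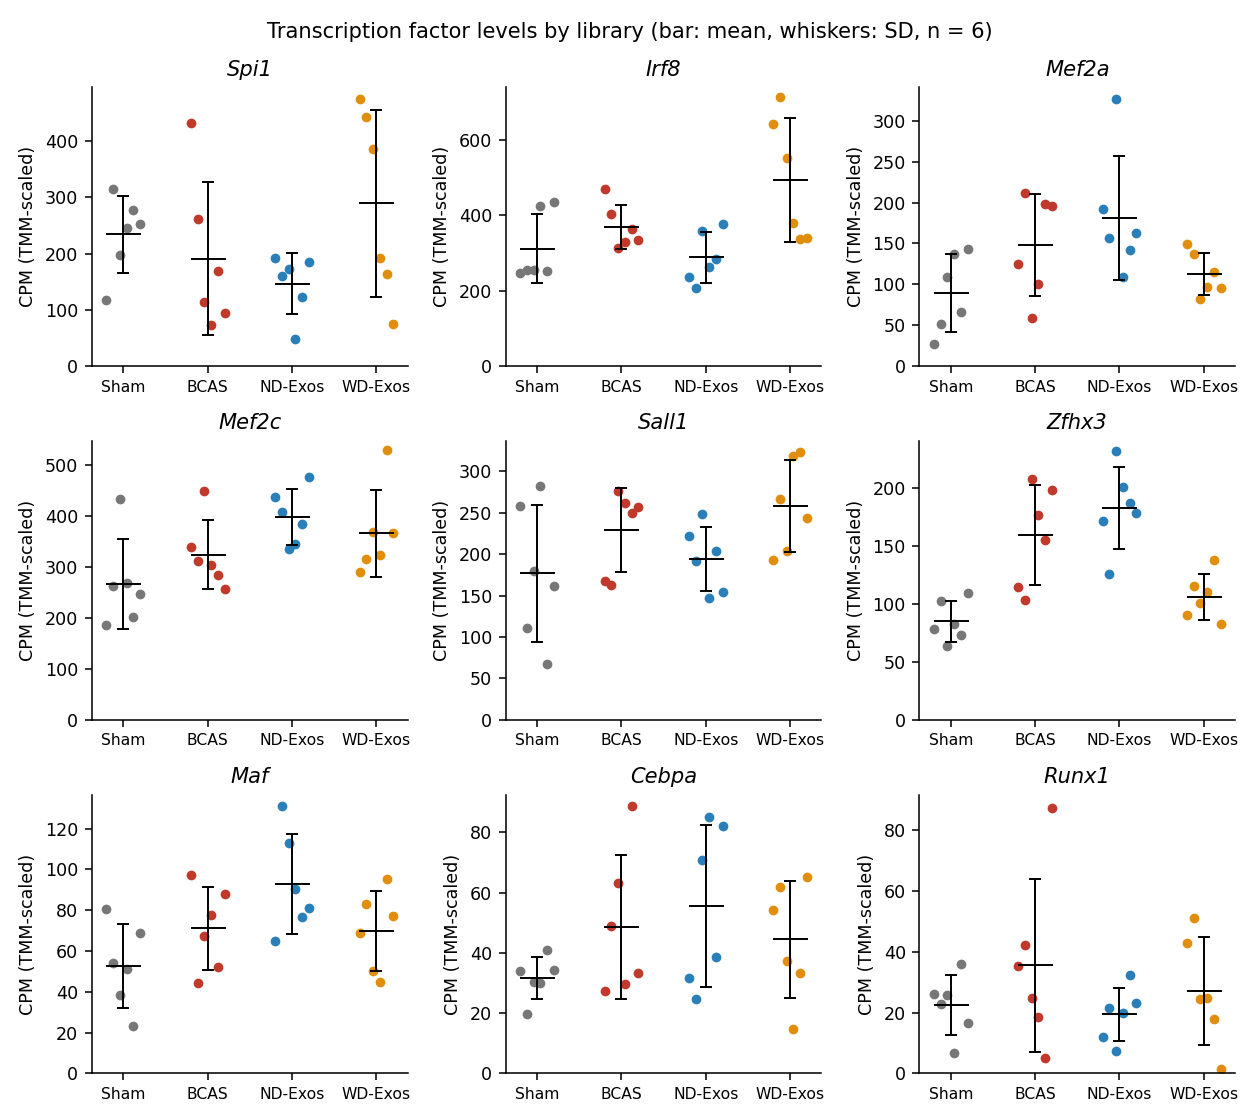
Level of each transcription factor (y axes, CPM, each panel with its own scale from 0) in the 6 libraries of Sham, BCAS, ND-Exos and WD-Exos; bars are means and whiskers the SD. Zfhx3 is high in BCAS and ND-Exos (159 and 183 CPM) and lower in Sham and WD-Exos (84.9 and 106 CPM), and the high Spi1 and Irf8 levels with WD-Exos belong to replicates 1 to 3.

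Counted together, 8 of the 9 members were higher in BCAS than in Sham (49.9% of all tested genes were higher) and Spi1 was lower (50.1% of them were), with a median log2 fold change of 0.43 beside -0.00 over all genes. Of the 9, 0 passed the edgeR test, as did 0% of all genes. Zfhx3 and Mef2a had an unadjusted p under 0.05, as did 6.04% of all genes; DESeq2 called 1 member, Zfhx3, and limma voom 0. Operated against Sham shares these Sham and BCAS libraries and again had 8 of 9 members higher (47.3% of all genes) and Spi1 lower (52.7%), with a median of 0.44. There 4 members, Zfhx3, Mef2c, Mef2a and Maf, had an unadjusted p under 0.05 (6.72% of all genes). The median SE was 0.25 for the members and 0.89 for all tested genes, so the 2 shares come from genes of unlike precision. Sall1, Mef2a, Mef2c, Maf, Runx1 and Zfhx3 have a longest coding transcript of 5000 bases or more. Among other genes with a mean of at least 50 CPM, 62.3% of those of 5000 to 10000 bases were higher in BCAS against Sham. Of those of 10000 bases or more, 66.7% were. In operated against Sham these shares were 64.9% and 71.8%. The part of transcript length in the members' direction was not tested.

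ND-Exos against BCAS had 5 members higher (50.4% of all genes) and 4 lower (49.6%), with a median of 0.19. By edgeR 0 members passed, beside 0.0196% of all genes, 0 had an unadjusted p under 0.05 (4.47% of all genes), and DESeq2 and voom also called 0. In WD-Exos against BCAS 4 were higher (48.9%) and 5 lower (51.1%), with a median of -0.02. Again 0 members passed by edgeR (0% of all genes), DESeq2 or voom, and Zfhx3 alone had an unadjusted p under 0.05 (3.71% of all genes). These comparisons share the BCAS libraries. In none of the 5 comparisons were the ranges of a member's groups apart. Among all tested genes the share with ranges apart was 0.127% higher and 0.245% lower in BCAS against Sham, 0.0979% and 0.0881% in ND-Exos against BCAS, 0.117% and 0.0685% in WD-Exos against BCAS, 0.294% and 0.225% in WD-Exos against ND-Exos, and 0% and 0.0685% in operated against Sham.

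In WD-Exos against ND-Exos, the direct comparison of the exosome kinds, the members were divided in direction. Spi1, Irf8, Sall1 and Runx1 were higher (49.2% of all genes were higher), and Mef2a, Mef2c, Zfhx3, Maf and Cebpa were lower (50.8%). The median log2 fold change was -0.12. By edgeR 0 members passed, beside 0.0196% of all genes. Of the 9, 3 had an unadjusted p under 0.05 (5.33% of all genes), namely Zfhx3, Irf8 and Spi1. DESeq2 called 2, Irf8 (adjusted p = 0.0271) and Zfhx3 (adjusted p = 0.0187), and voom called 0. Over the 4 groups 0 members passed by edgeR, 4 had an unadjusted p under 0.05 (6.33% of all genes), namely Zfhx3, Irf8, Mef2c and Mef2a, DESeq2 called 2 and voom 1.

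**Figure D5:**
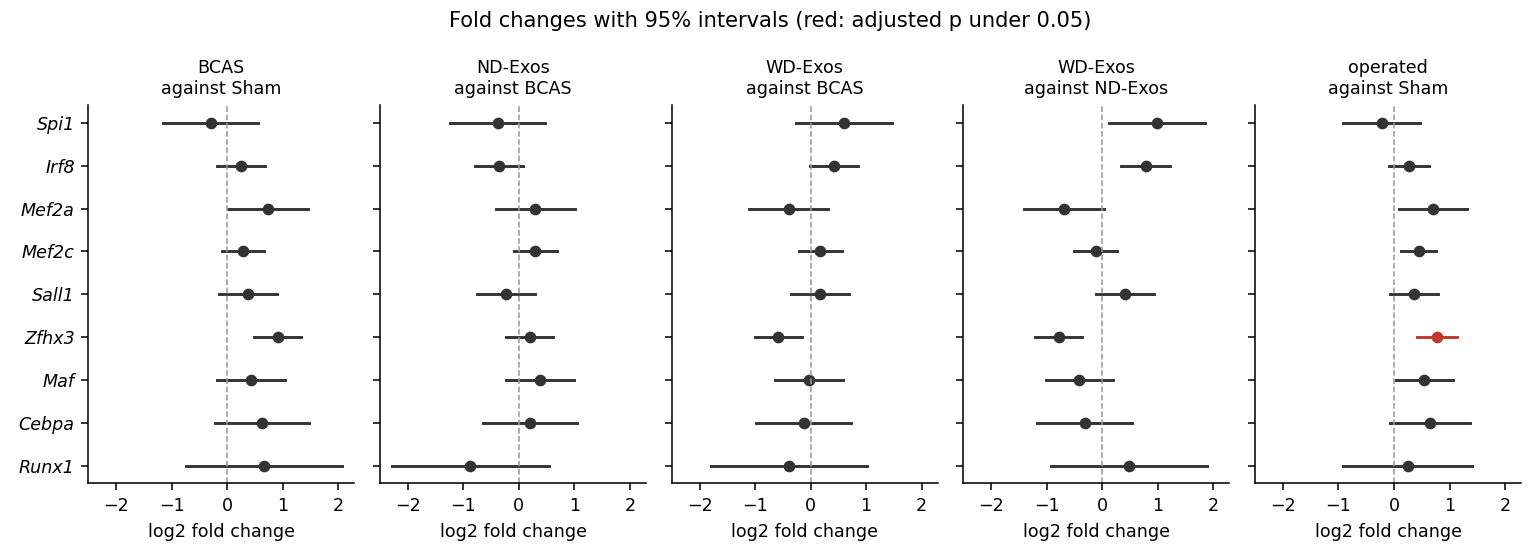
Log2 fold change (x axes) of each transcription factor with its 95% interval in the 5 comparisons; red marks an adjusted p under 0.05. Zfhx3 in operated against Sham, at 0.78, is the only red point, and Runx1 has the widest intervals.

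Other factors of the same families and their DNA partners, 26 listed and 17 tested, gave 0 calls in any of the 5 comparisons. Irf9, the DNA-binding part of the interferon-activated complex, averaged 68.1 ± 25.0 CPM for Sham (SD, n = 6), 132 ± 32.2 CPM for BCAS, 77.3 ± 21.1 CPM for ND-Exos and 125 ± 27.5 CPM for WD-Exos. Its log2 fold change was 0.96 in BCAS against Sham (adjusted p = 0.36) and -0.78 in ND-Exos against BCAS (adjusted p = 0.577), not past the threshold. Among the lower genes Sall3, a relative of Sall1, had the smallest p in BCAS against Sham (-1.44, adjusted p = 0.606), and it was higher in WD-Exos against BCAS (2.16, adjusted p = 0.816). Mafg, a small Maf protein, had 2.36 in ND-Exos against BCAS (adjusted p = 0.577), and Cebpg was the lower gene with the smallest p in both WD-Exos comparisons (-0.81 and -1.12, adjusted p = 1 and 0.706). In operated against Sham the smallest p belonged to Irf9 among the higher genes (0.67, adjusted p = 0.33) and to Cebpb among the lower (-3.02, adjusted p = 0.494), which was at most 15.1 CPM in any library.

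Among 42 other myeloid transcription factors, 39 were tested and 0 were called in any of the 5 comparisons. Usf1 stood at 51.8 ± 10.02 CPM in Sham and 92.7 ± 25.5 in BCAS (log2 fold change 0.84, adjusted p = 0.389). Elf1, an ETS factor, stood at 103 ± 38.2 CPM with ND-Exos, 53.2 ± 23.6 in BCAS and 55.7 ± 16.1 with WD-Exos (0.95 in ND-Exos against BCAS, adjusted p = 0.615; -0.89 in WD-Exos against ND-Exos, adjusted p = 0.7). The remaining genes picked by the naming rule were Elf4 (-2.03 in BCAS against Sham, 2.96 in WD-Exos against BCAS), Tcf4 (-0.51 in WD-Exos against BCAS), Nfatc1 (0.99 in WD-Exos against ND-Exos), Id2 (2.71 in operated against Sham) and Ikzf1 (-0.51 in operated against Sham), with adjusted p from 0.271 to 1. Usf1 in ND-Exos against BCAS had -0.57 (adjusted p = 1).

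Microglial genes listed as dependent on these factors, all 29 of 29 tested, gave 0 calls in any of the 5 comparisons. Their dependence on the 9 members was not tested. In BCAS against Sham 23 were higher and 6 lower (median log2 fold change 0.09), led by the cytokine receptor Csf3r (0.83, adjusted p = 0.376). C1qc, a complement subunit, was the lower gene with the smallest p (-0.48, adjusted p = 1). In ND-Exos against BCAS 9 were higher (50.4% of all genes) and 20 lower (49.6%), with a median of -0.13. Tyrobp, the signalling adaptor of TREM2, had -0.34 (adjusted p = 0.577) and Ptprc, encoding CD45, 0.45 (adjusted p = 1). In WD-Exos against BCAS 16 were higher (48.9% of all genes) and 13 lower (51.1%), with a median of 0.01. Olfml3 had 0.30 and the protease gene Ctss -0.30, both with adjusted p = 1. In WD-Exos against ND-Exos 18 were higher (49.2% of all genes) and 11 lower (50.8%), with a median of 0.05. Csf1r, the receptor microglia need to survive and a known PU.1 target, stood at 12420 ± 3101 CPM with WD-Exos and 7429 ± 2412 with ND-Exos (0.74, adjusted p = 0.513), and Itgb5 at 426 ± 64.2 and 676 ± 156 CPM (-0.67, adjusted p = 0.321). In operated against Sham 20 were higher (47.3% of all genes) and 9 lower (52.7%), with a median of 0.11. The purinergic receptor P2ry13 had 0.76 (adjusted p = 0.119) and C1qc -0.47 (adjusted p = 0.888). By edgeR, 7 of the 29 had an unadjusted p under 0.05 in BCAS against Sham (6.04% of all genes). The count was 7 in WD-Exos against ND-Exos (5.33%) and 5 in operated against Sham (6.72%). It was 3 in ND-Exos against BCAS (4.47%) and 1 in WD-Exos against BCAS (3.71%). These shares too come from genes of unlike precision: the median SE in operated against Sham was 0.14 for the 29 and 0.89 for all tested genes.

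The genes whose deviations from the group mean were most like those of each member, among those with a mean of at least 50 CPM, are given as a description over 24 libraries that share depth and composition. Spi1 was closest to C1qc (r = 0.85) and Grina (0.81), and among the genes like Irf8 was Glud1 (0.77). Sall1 was closest to Emc1 (0.75) and Idua (0.70), Zfhx3 to Washc4 (0.71) and Tm9sf3 (0.66). Mef2a was closest to Dnajc5 (0.74) and Lman1 (0.64), and Mef2c to Bnip3l (0.65) and Plpp1 (0.64). Maf was closest to Tmem43 (0.67) and Odr4 (0.66), Cebpa to Clptm1l (0.68) and Igsf6 (0.62), and Runx1 to Rab32 (0.72) and Dnajb14 (0.70). No gene was named for more than 1 member.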

How the data were processed

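RNA of sorted mouse microglia was measured in 24 libraries by Smart-seq2, per the labels' protocols. The authors deposited 1 table of estimated counts, by Entrez identifier and unscaled. The aligner, counting tool, build and annotation behind it: not given in the sources used here. For 76.8% of genes the estimated counts as deposited were whole numbers in every library, and the rest were rounded here. Of 22064 identifiers, 6186 were blank and left out. A RefSeq table of GRCm38.p6 gave 22002 identifiers a symbol, and lengths are those of the longest coding transcript in GENCODE mouse release 21.

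Genes were kept by edgeR's filterByExpr with a minimum count of 10 (10219 genes). One quasi-likelihood fit (edgeR 4.0.16, R 4.3.3, TMM scaling factors 0.936 to 1.17, robust) held the 4 group means of all 24 libraries. Benjamini-Hochberg adjustment ran over all tested genes, with 0.05 as the threshold. "Operated" is the mean of the 3 BCAS groups. Correlations used log2(CPM + 1) minus its group mean and 100000 permutations within groups. The fit was also run on counts simulated from its own means and spread, which cannot show how well the model suits these libraries. Members and gene lists were chosen with earlier results of these data known, and the length score, the immediate early score and the STAT-type motif were added after seeing the data. All 9 members are named in every comparison; from each list of related genes, where none passed, the 1 higher and the 1 lower gene with the smallest p are named, and for each member the 2 genes with the highest r. One gene that this rule picked is not reported here. Alternatives covered scaling, filters, DESeq2 1.42.0, limma voom 3.58.1, covariates, a replicate block and leaving out libraries.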

Additional observations from a re-analysis of the deposited data

Results flagged for a closer look

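Of 36 groups of 6 libraries examined, 1 for each member and group, 2 held a library far from the others by Dixon's criterion (gap over range above 0.625), and chance gives about 1 in 20. Mef2c in Sham replicate 3 was 432.5 CPM, with the next library at 268.0 CPM and a gap of 0.668 of the range. Mef2c in WD-Exos replicate 5 was 529.5 CPM, with the next at 367.7 CPM and a gap of 0.677 of the range.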

How the results depend on the processing

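Of 1870 alternative values for the members' single results, 1819 kept their direction and side of the threshold, 16 were no longer past it, 15 were newly past it and 20 reversed. All 16 belonged to Zfhx3 in operated against Sham, the only member result past the threshold in the main fit. That result had 34 alternatives, of which 18 kept the call. The other results had no call to lose, so the 1819 do not measure how stable the call was. Without the filter on low counts, 983 genes passed in operated against Sham and 30 over the 4 groups, 1 of them a member (Zfhx3). With detected genes as a covariate, 1 gene passed in ND-Exos against BCAS, 0 members in operated against Sham (Zfhx3 0.75, adjusted p = 0.0603) and 13 genes over the 4 groups. Fitting only the 2 groups compared left 1 gene in WD-Exos against ND-Exos.

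DESeq2 called 205, 158, 119, 127, 273 and 160 genes in BCAS against Sham, ND-Exos against BCAS, WD-Exos against BCAS, WD-Exos against ND-Exos, operated against Sham and over the 4 groups. Its member counts were 1 in BCAS against Sham, 2 in WD-Exos against ND-Exos, 1 in operated against Sham (Zfhx3, adjusted p = 0.000335) and 2 over the 4 groups. Voom called 9, 1, 1, 4, 119 and 63 genes in the same order, with 0 members in operated against Sham (Zfhx3 adjusted p = 0.0573) and 1 over the 4 groups.

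Over 36 pairs of same-numbered libraries r ran from -0.162 to 0.175 (2659 genes), 4 pairs were over 0.1 and 4 were best with their own number. Between WD-Exos and BCAS every same-numbered pair had a positive r, from 0.0336 to 0.175, and replicates 1, 2 and 4 were over 0.1. Replicates 1 and 2 of both these groups were among the 5 libraries with an immediate early score above 8. Whether these groups share a replicate pattern was not tested. With the replicate block, 0 members passed in operated against Sham (Zfhx3 0.76, adjusted p = 0.0951).

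Leaving out 1 library at a time, members called numbered 0 to 1 in BCAS against Sham, in operated against Sham and over the 4 groups, and 0 in the other comparisons. All genes called ranged from 0 to 32, 1 to 3, 0 to 0, 2 to 5, 15 to 90 and 2 to 42 in the order above. Over these fits Spi1 in ND-Exos against BCAS ran from -0.547 to 0.039, and in WD-Exos against BCAS Maf ran from -0.124 to 0.087, Cebpa from -0.254 to 0.146 and Runx1 from -0.67 to 0.106.

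With the length score as a covariate, 0 genes and 0 members passed in operated against Sham, and Runx1 there was -0.044. With the immediate early score, 13 genes passed in BCAS against Sham, 6 in WD-Exos against ND-Exos and 40 over the 4 groups, with 1 member there, and Runx1 in operated against Sham was -0.04. Without the 5 libraries highest in immediate early genes, 27 genes and 1 member passed in BCAS against Sham (Zfhx3 1.12, adjusted p = 0.0345), 93 genes in operated against Sham, and 59 genes and 1 member over the 4 groups. These values then reversed: in ND-Exos against BCAS Spi1 (0.387) and Zfhx3 (-0.001), in WD-Exos against BCAS Maf (0.037), in WD-Exos against ND-Exos Spi1 (-0.027), Mef2c (0.036) and Runx1 (-0.398), and in operated against Sham Runx1 (-0.067). These 3 alternatives were chosen after seeing the data, and the cause of the changes was not tested. No pair of members passed with log2(CPM + 0.1), with group means kept or with the other scaling. The spread between libraries limits Runx1 most.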
